A study of Mus musculus with 6 samples.

Results

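The genes described here make and use small RNAs in the mouse oocyte. They are the RNase III enzymes Dicer1 and Drosha, the double-stranded RNA binding partners Dgcr8, Tarbp2 and Prkra, and the 4 Argonaute genes Ago1, Ago2, Ago3 and Ago4. All 9 were taken as a fixed list of names and found through the platform annotation, on 11 probe sets that name 1 gene each, out of 35556 probe sets and 19938 named genes. This list and the partner lists below were chosen with earlier results of these data known, so their shares are descriptions only. Ago2 and Tarbp2 have 2 probe sets, and the brighter one was used for each.

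Expression was measured in fully-grown, germinal-vesicle oocytes on 3 arrays from females homozygous for an ENU-induced Marf1 mutation (ENU is a chemical mutagen) and 3 arrays from Marf1+/+ (wild-type) females. Mice of both groups were 23 days old and had a background of C57BL/6J mixed with C3HeB/FeJ, and oocytes were taken after priming with 5 IU of equine chorionic gonadotropin for 46 hours from 21 days of age. Oocytes were stripped of cumulus cells, and their RNA was amplified by a whole-transcript method and hybridised as 1 sample per array. Nothing in the labels ties each sample to its own animals, so the p-values speak only of variation among these 6 samples, part of which may be technical.

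In the nucleus, Drosha and its partner Dgcr8 form the Microprocessor, which cuts hairpins out of primary microRNA transcripts. The complex is also known to cut hairpins in the Dgcr8 mRNA itself. Dicer1 then cuts the exported hairpin, or long double-stranded RNA, into short duplexes, helped by Tarbp2 and Prkra, and an Argonaute protein holds one strand and finds matching mRNAs. Ago2 is the Argonaute known for cutting its target efficiently in mammals. Mouse oocytes are known for a microRNA pathway that has little activity and for strong RNA interference by endogenous siRNAs, made by a shortened Dicer whose promoter lies in a retrotransposon. Oocytes without Dicer1 or without cutting by Ago2 fail in meiosis, whereas oocytes without Dgcr8 mature.

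Marf1 itself checks the labels, and its level was 5.98, 6.40 and 6.16 in mutant replicates 1 to 3, against 9.21, 9.16 and 9.31 in wild-type replicates 1 to 3 (log2 expression, as are all levels below). Mutant replicate 3 stood apart from the other arrays. Its correlation with the other mutant arrays over all probe sets was 0.970 to 0.973, against 0.985 between mutant replicates 1 and 2 and 0.984 to 0.985 between wild-type arrays. Oocyte markers were high on every array. All 12 oocyte markers lay at 6.33 or more on average, and their mean level was 9.85 to 10.18 in mutant arrays and 10.03 to 10.24 in wild-type arrays.

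Markers of other ovarian cells were dim in part, 14 of 28 of them lying under a level taken from sensory receptor genes. The 95th percentile of 1190 olfactory and vomeronasal receptor genes, which serve smell and pheromone sensing, was 4.51, and it is called the receptor-gene level below. Of 15 measured cumulus and granulosa markers 7 lay under it, Amh, Fshr and Amhr2 among them, and the mean level of the 15 was 4.70 to 5.06 in mutant arrays and 4.65 to 4.80 in wild-type arrays. Kitl and Nr5a2 were the 2 that passed limma's test, both higher in the mutant. Kitl averaged 5.66 in the mutant and 3.72 in wild type, under the receptor-gene level there, so its log2 fold change of 1.94 (adjusted p = 7.31e-04) may be a lower bound. Nr5a2 was bright in both genotypes, at 10.17 in the mutant and 8.71 in wild type (1.46, adjusted p = 0.00251). Of 7 theca and stroma markers 4 were under the receptor-gene level and Pdgfra was higher, at 4.89 in the mutant and 4.22 in wild type (0.67, limma adjusted p = 0.0299), a call lost with any 1 of the 6 arrays left out (adjusted p = 0.0519 to 0.121). The mean of those 7 was 4.29 to 4.60 in mutant arrays and 4.27 to 4.42 in wild-type arrays. Of 6 blood, immune and endothelial markers 3 were under the level and Pecam1 was lower, at 6.20 in the mutant and 7.27 in wild type (-1.07, limma adjusted p = 0.0144), a call lost without wild-type replicate 1 or 3 (adjusted p up to 0.0640). Their mean was 4.60 to 4.69 in mutant arrays and 4.54 to 4.75 in wild-type arrays. The part of these markers in the results below was not tested. In such pooled samples less RNA per cell and fewer cells of a type cannot be told apart.

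The partners of the Microprocessor moved in opposite directions in Marf1-mutant oocytes. Dgcr8 rose 2.83-fold and Drosha fell, with 1.84-fold more signal in wild type, and no other gene of the 9 passed limma's test at an adjusted p under 0.05. That is 1 higher and 1 lower of 9, or 22.2% of the list, where 10.4% of all 19938 genes passed (6.4% higher and 4.04% lower). Of the 12397 genes whose mean lay at or above the receptor-gene level 16.2% passed. These shares depend on single arrays too. Over all probe sets 1700 were higher and 1065 lower, against 1093 and 306 without wild-type replicate 1, 1174 and 490 without wild-type replicate 2 and 1071 and 297 without wild-type replicate 3. Without mutant replicate 1 there were 1174 and 519, without mutant replicate 2 1194 and 532, and without mutant replicate 3 1908 and 896. The 9 genes had a median log2 fold change of 0.083, beside -0.04 over all genes.

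Dgcr8, which holds the hairpin for Drosha, had 9.11, 8.76 and 8.73 in mutant replicates 1 to 3, against 7.36, 7.48 and 7.25 in wild-type replicates 1 to 3. Every mutant array lay above every wild-type array, and the gap between the nearest of them was far wider than the spread within either genotype. The means were 8.87 ± 0.21 in the mutant and 7.36 ± 0.12 in wild type (SD, n = 3 each), a log2 fold change of 1.50 (SE 0.16, 95% interval 1.14 to 1.87, limma adjusted p = 0.00147). With any 1 array left out the log2 fold change was 1.38 to 1.57, and the gene passed in each of these 6 fits.

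Drosha, the enzyme of the pair, had 7.69, 7.39 and 7.50 in mutant replicates 1 to 3, against 8.71, 8.31 and 8.19 in wild-type replicates 1 to 3. All mutant values were below all wild-type values, and wild-type replicate 1 was the highest. The means were 7.53 ± 0.15 in the mutant and 8.40 ± 0.27 in wild type (SD, n = 3 each), a log2 fold change of -0.88 (SE 0.18, 95% interval -1.29 to -0.46, limma adjusted p = 0.0257). This call was less secure than that of Dgcr8. It was lost without mutant replicate 1, 2 or 3 (limma adjusted p = 0.0518, 0.0841 and 0.0519) and without wild-type replicate 1 or 2 (0.0827 and 0.0672), and it passed without wild-type replicate 3 (0.0495), while the log2 fold change stayed between -0.98 and -0.72.

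**Figure D1:**
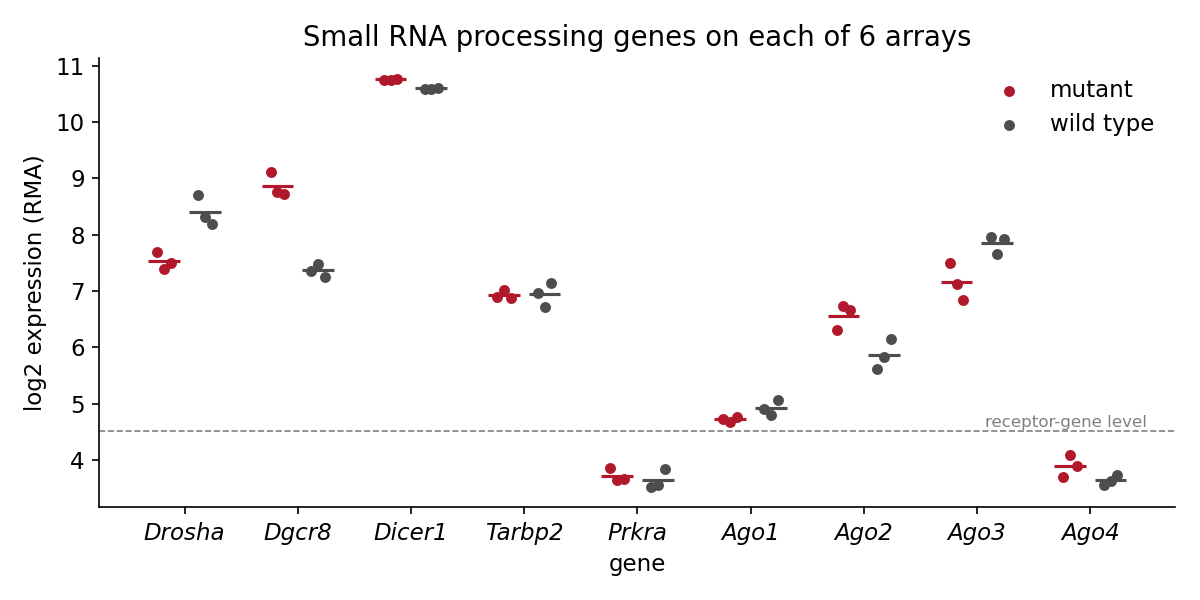
Log2 expression (RMA values, vertical axis) of the 9 small RNA processing genes on each array, with mutant arrays as red points left of wild-type arrays as grey points, and a bar at each mean of 3. Dgcr8 is higher and Drosha lower on every mutant array, and Prkra and Ago4 lie under the receptor-gene level of 4.51 (dashed line). Heights are not comparable between genes, since each probe set has its own response.

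Because Dgcr8 and Drosha sit on the same arrays, their difference within an array cancels any shift of a whole array. Dgcr8 minus Drosha was 1.34 ± 0.098 in mutant arrays and -1.04 ± 0.27 in wild-type arrays (SD, n = 3 each), a change of 2.38 on the log2 scale. This is a description, since genes that separate the genotypes in opposite directions must also do so in their difference.

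Dicer1, the enzyme that makes both microRNAs and endogenous siRNAs, did not pass the threshold. Its level was 10.75, 10.75 and 10.77 in mutant replicates 1 to 3, against 10.59, 10.59 and 10.61 in wild-type replicates 1 to 3. Every mutant array was higher than every wild-type array, by a small and very even step. The log2 fold change was 0.16 (95% interval -0.12 to 0.44, limma adjusted p = 0.58), a 1.12-fold difference. The SD of Dicer1 was 0.0115 in each genotype, whereas the SE of 0.12 in the fit also draws on the spread of all other probe sets. The annotation gives Dicer1 1 probe set, which is not known to tell the shortened oocyte form from the full-length one.

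The binding partners of Dicer1 did not pass either. Tarbp2, which binds double-stranded RNA and helps Dicer1 to load Argonaute, had 6.89, 7.02 and 6.88 in mutant replicates 1 to 3, against 6.96, 6.71 and 7.15 in wild-type replicates 1 to 3. The genotypes overlapped, and the log2 fold change was -0.01 (95% interval -0.37 to 0.35, limma adjusted p = 0.986). Its second, dimmer probe set had a log2 fold change of -0.043 (limma adjusted p = 0.945). The annotation assigns that probe set to Tarbp2, but which locus it reads was not settled. Prkra, also called PACT and a relative of Tarbp2, had 3.86, 3.64 and 3.66 in mutant replicates 1 to 3, against 3.52, 3.56 and 3.83 in wild-type replicates 1 to 3. These values overlapped and lay under the receptor-gene level on all 6 arrays, so a change of Prkra was not measurable here. The 95% interval of its log2 fold change, -0.27 to 0.43, describes the signal and does not bound a change of its RNA.

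None of the 4 Argonautes passed the threshold. Ago2 had 6.30, 6.73 and 6.66 in mutant replicates 1 to 3, against 5.62, 5.82 and 6.14 in wild-type replicates 1 to 3. Every mutant value was above every wild-type value, with wild-type replicate 3 the nearest to the mutants. The log2 fold change was 0.70 (SE 0.19, 95% interval 0.26 to 1.15, limma adjusted p = 0.0711). The other Ago2 probe set had 6.21, 5.99 and 6.55 in mutant replicates 1 to 3, against 5.40, 5.67 and 5.79 in wild-type replicates 1 to 3, with a log2 fold change of 0.63 (limma adjusted p = 0.0991). Its groups did not overlap either, so the separate probe sets of Ago2 gave the same order of genotypes and missed the threshold alike.

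Ago3, which has the residues of a cutting enzyme but little such activity, differed in the other direction. It had 7.49, 7.13 and 6.84 in mutant replicates 1 to 3, against 7.96, 7.66 and 7.92 in wild-type replicates 1 to 3. The mutant values were all lower, mutant replicate 3 the most. The log2 fold change was -0.69 (SE 0.20, 95% interval -1.15 to -0.24, limma adjusted p = 0.0801).

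Ago2 minus Ago3 within an array was -0.59 ± 0.53 in mutant arrays and -1.99 ± 0.31 in wild-type arrays (SD, n = 3 each), a change of 1.40 on the log2 scale. That was the largest change among the Argonaute pairs. It too is only a description, since each gene already separated the genotypes in opposite directions. Whether Ago2 and Ago3 pass depended on the setting. Ago2 passed with cyclic loess normalization (limma adjusted p = 0.0362), Ago3 with quantile normalization (0.0328), and both where fewer probe sets were tested, at 0.0222 and 0.0262 with 1 probe set per gene.

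Ago1 and Ago4 are the Argonautes that bind small RNAs with little or no cutting activity. Ago1 had 4.73, 4.67 and 4.76 in mutant replicates 1 to 3, against 4.90, 4.79 and 5.06 in wild-type replicates 1 to 3. The mutant values were all lower by a narrow margin, close to the receptor-gene level (log2 fold change -0.20, 95% interval -0.51 to 0.12, limma adjusted p = 0.528). Ago4 had 3.69, 4.09 and 3.89 in mutant replicates 1 to 3, against 3.55, 3.62 and 3.74 in wild-type replicates 1 to 3. These overlapped under the receptor-gene level (0.25, 95% interval -0.10 to 0.61, limma adjusted p = 0.45). In the RefSeq annotation Ago3, Ago1 and Ago4 are direct neighbours among protein-coding genes, and their log2 fold changes were -0.69, -0.20 and 0.25.

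**Figure D2:**
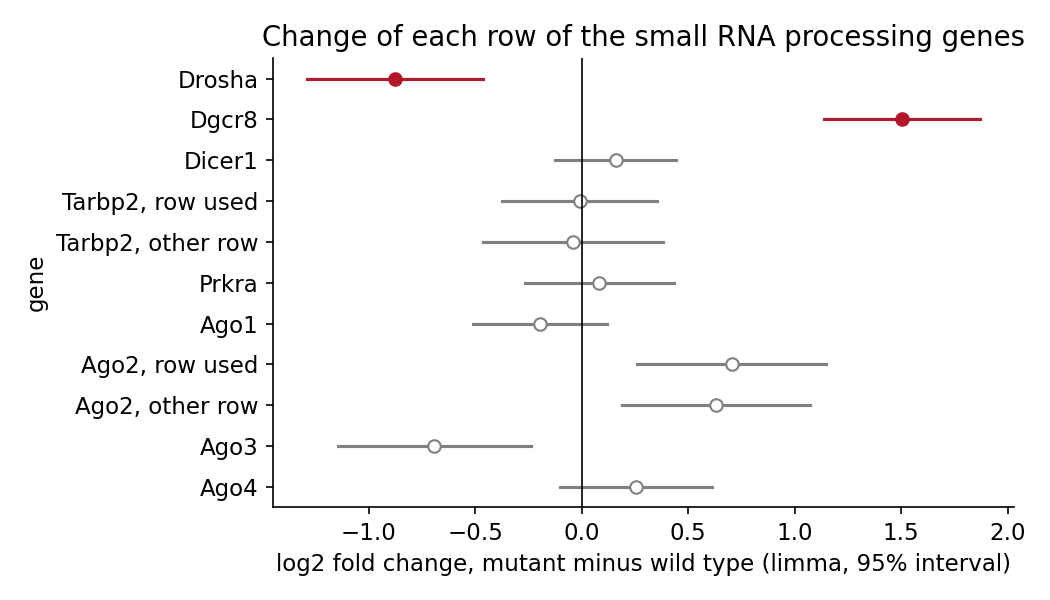
Log2 fold change (mutant minus wild type, horizontal axis) with its 95% interval from limma for each of the 11 probe sets of the 9 genes. Filled red points passed an adjusted p of 0.05 (Dgcr8 at 1.50 and Drosha at -0.88), and open grey points did not. The intervals of the Ago2 probe sets and of Ago3 lie on one side of 0, because they are not adjusted for the number of probe sets tested.

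Counted by overlap, 6 of the 9 genes had mutant and wild-type groups that did not overlap, or 66.7%, where 30.7% of all genes and 42.5% of genes at or above the receptor-gene level did. Dgcr8, Dicer1 and Ago2 lay above and Drosha, Ago1 and Ago3 below. Over all genes 12.9% lay above and 17.7% below.

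The genes whose profile over the 6 arrays was closest to that of a member were sought among 12396 others at or above the receptor-gene level, as the Euclidean distance between profiles centred on their own means. For Dicer1 they were Slc25a51 (distance 0.0663), Mydgf (0.0730) and Sox1 (0.0731). For Drosha they were Nckap5 (0.185), Mpv17 (0.234) and Ddx23 (0.237), and for Ago2 Polr2a (0.232), Ppp1r3f (0.234) and Ptpa (0.250). With 6 arrays in 2 genotypes such distances mostly rank genes by their difference between genotypes.

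Around the Microprocessor and the export of hairpins, 5 of 17 measured genes rose and 0 fell (29.4%, beside 10.4% of all genes and 16.2% of those at or above the receptor-gene level, median log2 fold change 0.12), with 7 higher and 0 lower at an unadjusted p under 0.05 in limma. At that unadjusted p 2191 of all 19938 genes were higher and 2684 lower. Among the 12397 genes at or above the receptor-gene level these numbers were 1997 and 2509. Ncbp1, the large subunit of the nuclear cap-binding complex, had 6.72, 6.63 and 6.21 in mutant replicates 1 to 3, against 4.29, 4.79 and 3.93 in wild-type replicates 1 to 3. The groups were far apart, and the wild-type mean of 4.34 lay under the receptor-gene level, so the log2 fold change of 2.18 (SE 0.25, limma adjusted p = 0.00191) may be a lower bound. Tut4, a uridylyl transferase that tails microRNA precursors, had 6.23, 5.63 and 5.87 in mutant replicates 1 to 3, against 4.24, 4.48 and 4.11 in wild-type replicates 1 to 3. It too was higher on every mutant array (1.63, SE 0.19, limma adjusted p = 0.00228) from a wild-type mean under that level. Its relative Tut7 rose by 0.87 (limma adjusted p = 0.0111).

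Ran, the GTPase that drives export by Xpo5, rose by 0.70 (limma adjusted p = 0.0401). Ddx5, a helicase that joins the Microprocessor, rose by 0.54 (0.0456), with 0.63 on its other probe set (0.0497). Ran and Ddx5 each passed in 1 of the 6 fits that left out an array, the one without mutant replicate 3, with adjusted p up to 0.136 and 0.149 in the rest. Tut7 passed in 4 of 6, not without wild-type replicate 1 or 3 (up to 0.0567). The number of rises was 2 without wild-type replicate 1 or 3, and 3 without mutant replicate 1 or 2 or wild-type replicate 2. Xpo5, the export receptor of hairpins, had -0.29 (limma adjusted p = 0.385), and Adar, which edits double-stranded RNA, 0.72 (0.0676).

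Among the proteins that load Argonaute or act with it, 3 of 23 rose and 0 fell (13.0%, near the 10.4% of all genes and under the 16.2% of those at or above the receptor-gene level, median log2 fold change 0.03), with 5 higher and 2 lower at an unadjusted p under 0.05 in limma. Of all 19938 genes 2191 were higher and 2684 lower at that unadjusted p. Fmr1, the fragile X RNA-binding protein found with Argonaute, had 9.0, 9.16 and 8.65 in mutant replicates 1 to 3, against 7.46, 7.72 and 7.53 in wild-type replicates 1 to 3. It was higher on every mutant array, mutant replicate 3 the lowest of them (log2 fold change 1.37, SE 0.17, limma adjusted p = 0.00313). Tnrc6a, the GW182 scaffold through which Argonaute recruits deadenylases, had 7.86, 7.61 and 7.49 in mutant replicates 1 to 3, against 6.41, 6.59 and 6.58 in wild-type replicates 1 to 3. It was higher on every mutant array (1.13, SE 0.15, limma adjusted p = 0.00421). Its relatives Tnrc6b, at -0.45 (0.109), and Tnrc6c, at -0.11 (0.808), did not pass, and the difference between the 3 was not tested. Fkbp4, a co-chaperone of Hsp90, rose by 1.06 (limma adjusted p = 0.0124) and passed in 4 of the 6 fits that left out an array, not without wild-type replicate 2 or 3 (up to 0.0603). Hsp90aa1, the chaperone itself, had 0.03 (0.954), and Mov10, a helicase of silencing complexes, 0.26 (0.432).

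In the turnover of small RNAs 1 of 8 genes rose and 1 fell, or 25.0%, beside 10.4% of all genes and 16.2% of those at or above the receptor-gene level (median log2 fold change -0.16). Usb1, which trims the ends of U6 and of some microRNAs, had 6.53, 6.96 and 6.42 in mutant replicates 1 to 3, against 5.34, 5.58 and 5.44 in wild-type replicates 1 to 3. It was higher on every mutant array (log2 fold change 1.18, SE 0.18, limma adjusted p = 0.00717) and passed with any 1 array left out. Exosc10, a nuclease of the nuclear exosome, fell by 0.68 (0.0223), a call that remained only without mutant replicate 3 among the 6 fits with 1 array less (up to 0.0922). Eri1, the exonuclease known for limiting small RNA silencing, had 0.74 (0.0572).

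Of 16 other proteins that bind double-stranded RNA or carry an RNase III domain, 0 rose and 1 fell (6.25%, under the 10.4% of all genes, median log2 fold change -0.043), with 2 higher and 4 lower at an unadjusted p under 0.05 in limma. At the same unadjusted p 2191 of all 19938 genes were higher and 2684 lower. Stau2, which binds and moves mRNA in neurons, fell by 0.72 (limma adjusted p = 0.0499), a call that no fit with 1 array less kept (up to 0.157). Eif2ak2, also called PKR and the kinase that senses double-stranded RNA, had 0.12 (0.834) from levels under the receptor-gene level in both genotypes, and Mrpl44, a mitochondrial protein with an RNase III fold, 0.69 (0.0544).

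**Figure D3:**
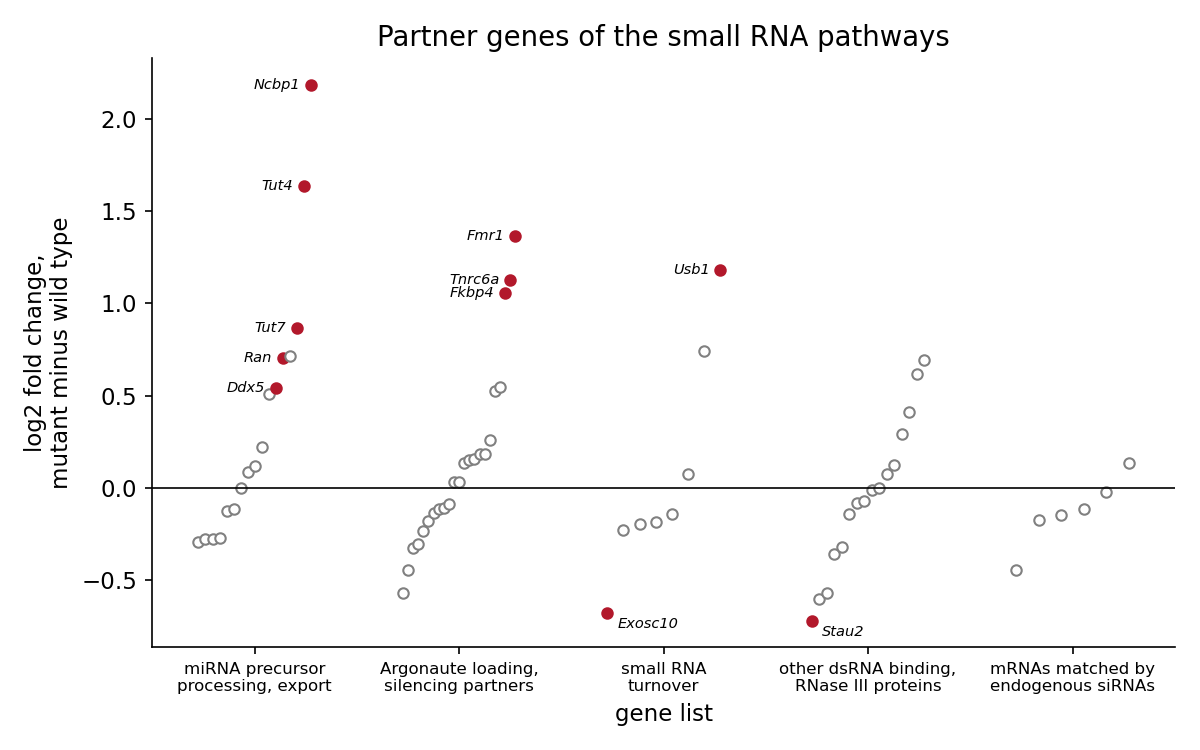
Log2 fold change (mutant minus wild type, vertical axis) of each partner gene, grouped into 5 lists and sorted within each. Filled red points passed an adjusted p of 0.05 in limma and are named, open grey points did not. The genes that passed are higher in the first 2 lists, from Ddx5 at 0.54 to Ncbp1 at 2.18, and the lowest is Stau2 at -0.72.

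Targets of the pathway gave no call. Some genes are known to be matched by endogenous siRNAs of mouse oocytes, and mRNAs of such genes are known to rise when Dicer1 is removed. Of all genes 10.4% passed in limma, and 16.2% of those at or above the receptor-gene level. Of 6 siRNA-matched genes measured, 0 rose and 0 fell in limma, near those shares for so few genes. At an unadjusted p under 0.05 in limma 2191 of all 19938 genes were higher and 2684 lower. Of the 6 siRNA-matched genes, 0 were higher and 1 lower at that p. Their log2 fold changes were -0.45 for the kinesin Kif4 (limma adjusted p = 0.242), -0.17 for Pdzd11, -0.15 for Rangap1, -0.11 for Elob, -0.02 for the phosphatase subunit Ppp4r1 and 0.13 for the deacetylase Hdac1. All 6 overlapped between genotypes, where 30.7% of all genes and 42.5% of those at or above the receptor-gene level did not. Kif4, for example, had 9.58, 9.34 and 8.99 in mutant replicates 1 to 3, against 9.88, 9.55 and 9.82 in wild-type replicates 1 to 3, and Ppp4r1 had 6.47, 6.79 and 6.61 in the mutant, against 6.62, 6.68 and 6.64 in wild type.

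Genes of microRNAs, the substrates of Drosha and Dicer1, were also on the array. They were taken by symbol, which also brought in the host gene Mir17hg. Of the 300 genes so taken 0 rose and 0 fell in limma, and 231 lay under the receptor-gene level. At an unadjusted limma p under 0.05, 6 were higher and 4 lower, where 2191 of all 19938 genes were higher and 2684 lower. The median log2 fold change of the 300 was 0.033, the lowest -0.48 and the highest 0.81. Groups did not overlap for 30 of them, or 10.0% (23 with the mutant above and 7 below), where 30.7% of all genes had such groups. Only 7541 of all 19938 genes lay under the receptor-gene level. The microRNA genes were thus dimmer, and no count or share of all genes given here is a like comparison for them. A probe set on a hairpin does not tell the primary transcript, the hairpin and the mature microRNA apart.

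**Figure D4:**
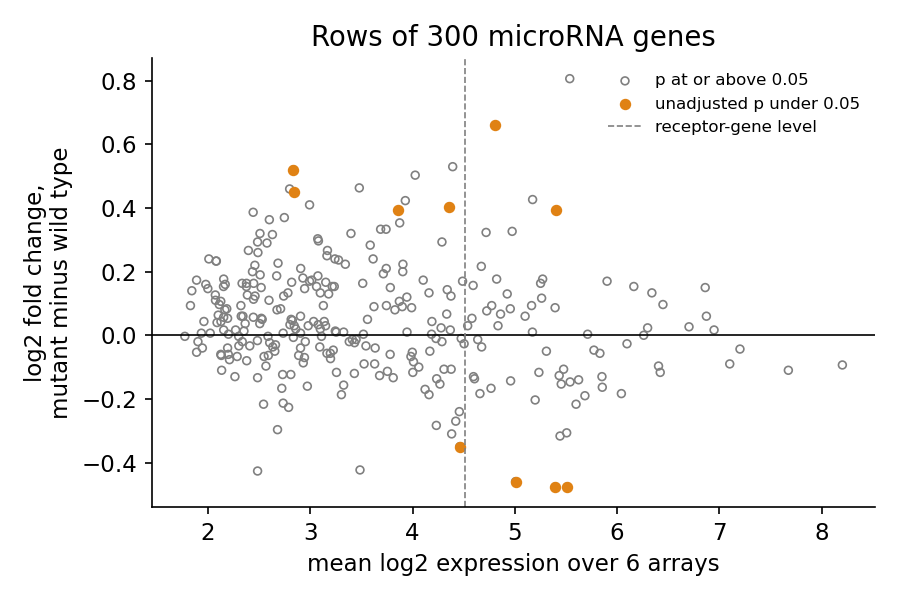
Log2 fold change (mutant minus wild type, vertical axis) against mean log2 expression over the 6 arrays (horizontal axis) for the 300 microRNA genes. Most points lie left of the receptor-gene level of 4.51 (dashed line), and the 10 orange points, with an unadjusted p under 0.05, all missed the adjusted threshold.

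The 4 microRNA genes printed here had an unadjusted p under 0.05, both genotype means above the receptor-gene level and an entry in RefSeq (GRCm38.p6), and were chosen after their values were seen. They show what the 2 enzymes release. The hairpin of Mir330 (chr7:19181465-19181562, plus strand) has the strands that end in Argonaute in capitals, with Drosha's cuts at the base of the stem and Dicer1's beside the loop. The mature strands that RefSeq lists here follow, 5′ to 3′, with only the 5p strand for Mir375. Their seed (bases 2 to 8), the stretch that Argonaute uses to find a target, is in capitals.
Mir330 hairpin: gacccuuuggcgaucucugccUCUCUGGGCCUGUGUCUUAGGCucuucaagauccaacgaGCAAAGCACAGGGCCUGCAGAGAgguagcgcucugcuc
mmu-miR-330-5p: uCUCUGGGccugugucuuaggc
mmu-miR-330-3p: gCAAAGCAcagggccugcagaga
mmu-miR-666-5p: aGCGGGCAcagcugugagagcc
mmu-miR-666-3p: gGCUGCAGcgugaucgccugcu
mmu-miR-375-5p: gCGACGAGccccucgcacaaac
mmu-miR-188-5p: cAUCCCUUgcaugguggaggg
mmu-miR-188-3p: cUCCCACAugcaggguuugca
Among the printed strands no seed is shared between genes, and the 3p strand of Mir375 was not analysed here.

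Mir666 had 5.24, 5.30 and 5.28 in mutant replicates 1 to 3, against 5.76, 5.53 and 5.96 in wild-type replicates 1 to 3. Mir375 had 5.26, 4.83 and 5.38 in the mutant, against 5.58, 5.53 and 5.79 in wild type. These 2 and Mir330 were lower on every mutant array, with log2 fold changes of -0.48, -0.48 and -0.46, and Mir188 was higher on every mutant array, at 0.39. Their limma adjusted p were 0.119 for Mir666, 0.189 for Mir375, 0.170 for Mir330 and 0.206 for Mir188, so none of the 4 passed.

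**Figure D5:**
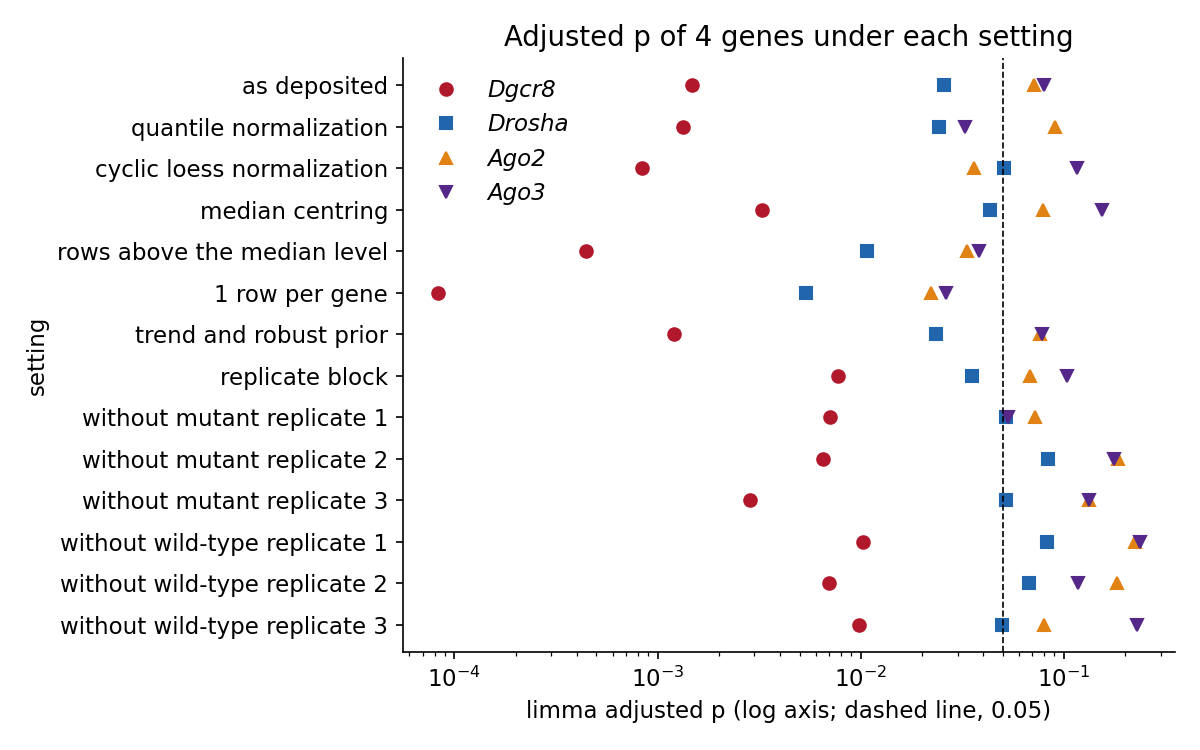
Adjusted p from limma (horizontal log axis) for Dgcr8, Drosha, Ago2 and Ago3 under each setting (vertical axis), with the threshold of 0.05 as a dashed line. Dgcr8 stays left of the line in all 14 settings, Drosha lies near it when 1 array is left out, and Ago2 and Ago3 cross it in 3 settings each.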

How the data were processed

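Each array's deposited column holds log2 expression for 35556 probe sets, given to 2 decimals. Per the submitters' processing notes the authors used RMA, with Affymetrix Expression Console 1.1 and GCOS also named. This method corrects background, is meant to bring arrays to a common distribution and summarises probes. A change of total RNA per oocyte is therefore not visible. The deposited columns still differed in median, from 4.56 in mutant replicate 1 to 4.76 in mutant replicate 3. Their SD over all probe sets ran from 2.04 in mutant replicate 3 to 2.20 in mutant replicate 1. No source used here gives the genome build behind the array, so coordinates are printed only for a microRNA hairpin, from RefSeq's GRCm38.p6 entry.

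Mutant and wild-type arrays were compared in R 4.3.3 by limma 3.58.1 (lmFit and eBayes, genotype only, two-sided) over all probe sets, with Benjamini-Hochberg adjustment over all of them. Platform annotation named 1 gene for 21789 probe sets, several for 1621 and none here for 12146. A gene with several took the probe set with the highest mean. In the partner lists Hnrnpa1 had only a probe set with several genes, and Hsp90ab1 was not analysed here. Named genes were all 9 members, Marf1, up to 6 list genes past the threshold, all siRNA-matched genes and the 3 nearest profiles of Dicer1, Drosha and Ago2. Others were named after their values were seen. Members and lists were chosen with earlier results of these data known. The pipeline was tested on simulated data with independent noise and no outlying array. Mutant replicate 3 stood apart here, so that test does not give the error rate in these data. Precision is limited by 3 arrays per genotype. Alternatives were 3 normalizations, a filter on dim probe sets, 1 probe set per gene, another variance model, a replicate block and leaving out each array.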

Additional observations from a re-analysis of the deposited data

How the results depend on the processing

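Limits come from 3 arrays per genotype and from dim signals, under 4.51 for Prkra and Ago4, which have no value in the fit above the median level. Dgcr8 passed under all 13 alternative fits (log2 fold change 1.38 to 1.66). Of the 9 genes, 2 were higher with 1 probe set per gene, with cyclic loess and among probe sets above the median level, against 1 as deposited. Likewise 2 were lower with 1 probe set per gene, with quantile normalization and above the median level, and 0 with cyclic loess, against 1. With 1 array left out the counts were 1 higher throughout and 0 to 1 lower. Drosha had -0.72 with cyclic loess (limma adjusted p = 0.051), and -0.98 to -0.72 with 1 array left out. Ago2 passed at 0.70 with 1 probe set per gene and above the median level and at 0.83 with cyclic loess. Ago3 passed at -0.69 with 1 probe set per gene and above the median level and at -0.71 with quantile normalization. Tarbp2 changed sign near 0, with 0.15 under cyclic loess and -0.12 to 0.10 with 1 array left out.

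In the partner lists, precursor processing had 3 higher with median centring and 2 to 5 with 1 array left out. Argonaute partners had 1 lower with 1 probe set per gene, 2 with quantile normalization and 1 above the median level. Turnover had 2 higher with 1 probe set per gene, quantile, cyclic loess, above the median level and with a trended robust prior, and 1 to 2 higher and 0 to 1 lower with 1 array left out. Other double-stranded RNA binding proteins had 1 higher with 1 probe set per gene, cyclic loess and above the median level, 0 lower with cyclic loess and median centring, and 0 to 1 higher and 0 lower with 1 array left out. MicroRNA genes had 1 higher with 1 probe set per gene. The siRNA-matched genes gave 0 calls under all 13. Where fewer probe sets were fitted, fewer were adjusted for and the prior spread was estimated anew. For the other settings the cause was not tested.

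Samples of both genotypes share replicate numbers. Deviations of same-numbered samples from their genotype means correlated weakly over all probe sets, at 0.147, -0.0992 and 0.0267. With means of 3 arrays this cannot decide whether the numbers pair the samples. With the replicate block Dgcr8 had a limma adjusted p of 0.00771, Drosha 0.0353, Ago2 0.0683 and Ago3 0.104, so no call of the 9 changed. Under the block precursor processing had 3 higher, turnover 0 lower and the other double-stranded RNA binding proteins 0 lower, and over all probe sets 1390 were higher and 556 lower, against 1700 and 1065.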
